A study of Mus musculus with 39 samples.

Results

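The genes described here make cholesterol, sense it, take it up, move it within the cell and export it. The set has 31 genes, listed by symbol, and each was read from the probe set annotated with that single gene symbol, taking the one with the highest mean where a symbol had several. Of the 31 genes, 28 were measured among 19938 genes on the array: 16 enzymes of the synthesis pathway, 5 regulators of the SREBP transcription factors, 4 genes of uptake and intracellular transport, the 2 exporters Abca1 and Abcg1, and the sterol-sensing receptor Nr1h3 (LXR alpha). Acat2, Nr1h2 and Soat1 are not analysed here.

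The values come from total RNA of isolated pancreatic islets, hybridised to 39 Affymetrix Mouse Gene 1.0 ST arrays in 10 groups. The C57bl6/J mice, all wild type, were non-pregnant females, pregnant mice (days 3.5, 6.5, 9.5, 12.5, 15.5 and 18.5), or lactating mice 10 days after birth, with 3 arrays at day 3.5 and 4 in each other group. A further 4 arrays came from non-pregnant Pdx1-creLate mice of backcross generation N8 and 4 from their wild-type littermates, with no sex given in the labels for either. Pdx1-creLate is a transgene that expresses Cre recombinase from a Pdx1 promoter in beta cells, and the construct includes a minigene for human growth hormone, which can bind the prolactin receptor; ages are not given in the sources used here.

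Islet identity and other cell types were checked on marker lists. The beta-cell list (8 markers measured of 9) had a mean level between 10.87 and 11.29 on the log2 scale over the 10 groups. The acinar list (14 of 16), whose genes are carried over from exocrine tissue, ranged from a group mean of 7.17 at day 3.5 to 10.00 at day 6.5, with Ctrb1 highest and the acinar transcription factor Ptf1a lowest in every group. Xist, the RNA of the inactive X chromosome, lay between 3.8 and 5.0 in the transgenic and littermate arrays. It lay between 9.7 and 10.5 in all C57bl6/J arrays, so sex appears to differ between these sets. The labels give no sex for the transgenic and littermate arrays. Islets are a mixture of cells, and in these bulk samples fewer cells of a type and less RNA per cell cannot be told apart.

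Cholesterol is built from acetyl-CoA through mevalonate, isoprenoid units, squalene and lanosterol, and a final series of enzymes turns lanosterol into cholesterol. When sterol in the endoplasmic reticulum is low, SCAP carries the SREBP proteins to the Golgi for cleavage, and the released fragment switches on the synthesis genes; INSIG proteins hold SCAP back when sterol is plentiful. Excess cholesterol, sensed as oxysterols by LXR receptors, is exported through ABCA1 and ABCG1. In beta cells, membrane cholesterol is known to affect insulin granules and insulin secretion.

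Promoter windows, from 250 bases before to 50 bases after an annotated start (RefSeq, GRCm38.p6), were held for 21 of the 28 genes, 30 windows in all. They are shown because the genes of one pathway are compared below and SREBP is known to act on such promoters together with NF-Y and Sp1. Capitals mark matches, on either strand, to a sterol response element type TCACNCCAC or to the NF-Y motif CCAAT. The windows below are those of Hmgcs1 (chr13:119690101-119690400, plus strand), Idi1 (chr13:8885356-8885655, plus), Cyp51 (chr5:4104648-4104947, minus), Ebp (chrX:8193463-8193762, minus), Dhcr7 (chr7:143829964-143830263, plus; 1 of 3 windows, shown for its NF-Y matches) and Abca1 (chr4:53159846-53160145, minus), each written 5′ to 3′ along the gene's strand.
Hmgcs1: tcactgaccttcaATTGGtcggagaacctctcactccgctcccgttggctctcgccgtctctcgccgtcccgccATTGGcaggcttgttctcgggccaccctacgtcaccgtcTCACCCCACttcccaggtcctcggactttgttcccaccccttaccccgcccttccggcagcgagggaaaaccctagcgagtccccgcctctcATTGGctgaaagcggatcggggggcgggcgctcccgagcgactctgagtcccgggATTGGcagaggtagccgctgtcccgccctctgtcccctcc
Idi1: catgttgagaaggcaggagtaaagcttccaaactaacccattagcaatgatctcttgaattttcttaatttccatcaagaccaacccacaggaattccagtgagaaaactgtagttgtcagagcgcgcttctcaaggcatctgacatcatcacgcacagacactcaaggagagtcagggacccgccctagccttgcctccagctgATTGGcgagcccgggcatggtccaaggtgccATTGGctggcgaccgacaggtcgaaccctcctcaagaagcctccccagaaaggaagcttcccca
Cyp51: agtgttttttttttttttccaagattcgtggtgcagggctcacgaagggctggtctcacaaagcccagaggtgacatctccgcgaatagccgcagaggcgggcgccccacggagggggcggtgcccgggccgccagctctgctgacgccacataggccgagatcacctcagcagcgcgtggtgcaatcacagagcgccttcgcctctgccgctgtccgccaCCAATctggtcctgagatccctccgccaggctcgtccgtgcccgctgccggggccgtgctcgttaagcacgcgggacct
Ebp: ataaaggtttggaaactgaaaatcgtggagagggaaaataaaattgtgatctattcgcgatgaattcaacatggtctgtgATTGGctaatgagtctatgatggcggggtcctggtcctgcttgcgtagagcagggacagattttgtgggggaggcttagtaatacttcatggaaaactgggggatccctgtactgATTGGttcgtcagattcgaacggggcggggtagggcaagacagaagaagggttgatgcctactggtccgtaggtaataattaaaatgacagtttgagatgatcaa
Dhcr7: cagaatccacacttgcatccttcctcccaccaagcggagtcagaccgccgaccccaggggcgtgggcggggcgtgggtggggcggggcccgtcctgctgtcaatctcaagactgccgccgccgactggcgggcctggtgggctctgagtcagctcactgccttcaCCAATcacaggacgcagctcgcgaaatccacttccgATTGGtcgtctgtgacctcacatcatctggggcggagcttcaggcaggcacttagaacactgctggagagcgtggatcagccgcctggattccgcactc
Abca1: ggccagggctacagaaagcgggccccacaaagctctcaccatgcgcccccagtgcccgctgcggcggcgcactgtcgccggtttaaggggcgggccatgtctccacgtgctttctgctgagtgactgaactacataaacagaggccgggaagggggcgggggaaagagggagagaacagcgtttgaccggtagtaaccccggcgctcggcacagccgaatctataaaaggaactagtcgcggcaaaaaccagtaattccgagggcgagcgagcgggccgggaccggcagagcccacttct
The sterol response element type was found in 1 of the 30 windows, that of Hmgcs1 (3.33%), and in 1.24% of 32851 promoter windows of the genome. CCAAT was found in 63.3% of the members' windows and 37.4% of all windows, and the Sp1 motif GGGCGG, not capitalised above, in 76.7% and 35.7%. The Abca1 window held GGGCGG but neither of the other motifs, and an LXR direct repeat was found in none of the members' windows and in 0.0152% of all windows. A match is a stretch of letters and not evidence of binding, and a missing match is not evidence that a site is absent. The LXR search used 1 fixed pattern, which matched only 5 of the 32851 windows. It therefore cannot show whether the members' windows, that of Abca1 included, hold LXR sites of other spelling.

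Levels are the authors' RMA values on the log2 scale, and a gene is called changed where limma's adjusted p over all 19938 genes was below 0.05. Differences are log2 differences between group means with their standard error. Every comparison with non-pregnant mice uses the same 4 non-pregnant arrays, so these comparisons are not independent of each other. The p-values measure the spread between these samples, which the labels call biological replicates.

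**Figure D1:**
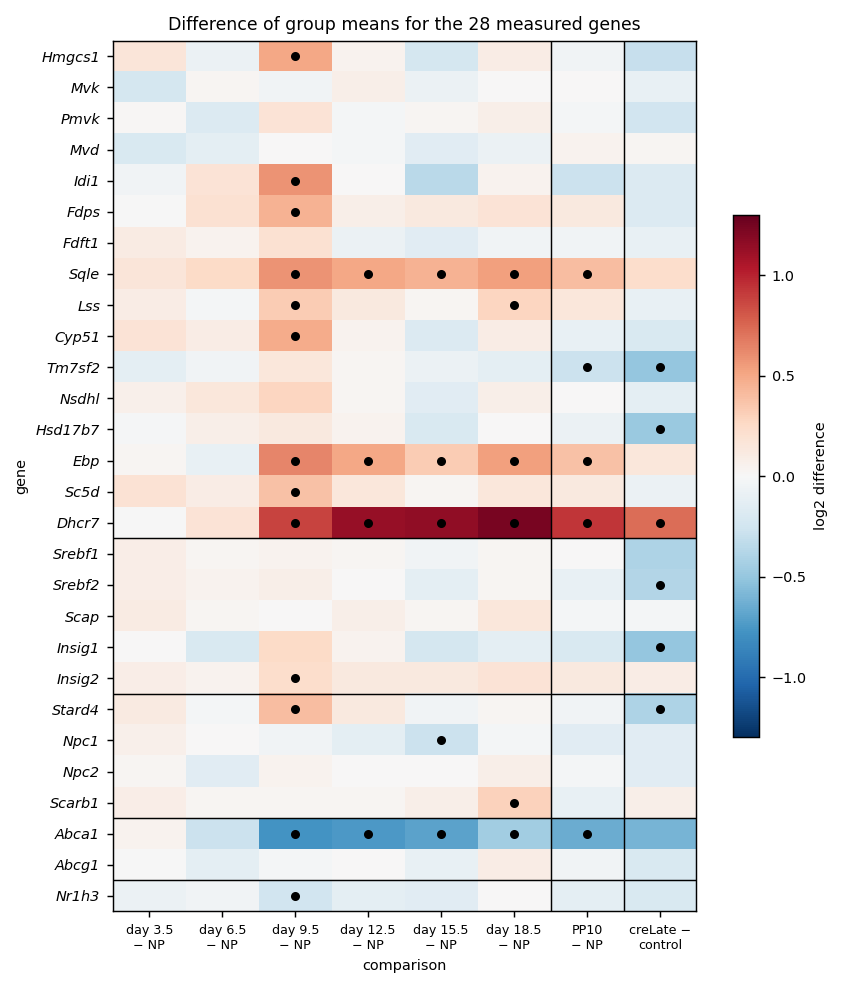
Log2 difference of group means for the 28 measured genes (rows, ordered by role: synthesis, SREBP regulators, uptake and transport, export, LXR) in 8 comparisons (columns); red is higher and blue is lower than the reference group, and a black dot marks a difference called by limma. Sqle, Ebp, Dhcr7 and Abca1 carry dots from day 9.5 to lactation, while Hmgcs1, Idi1, Fdps, Cyp51 and Sc5d carry one only at day 9.5; in the transgene column 22 of the 28 differences are below 0.

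Among the 6 days of pregnancy, 16 of the 28 genes differed by limma's moderated F-test, against 38.6% of all genes tested. No member was called at day 3.5, where 0.0451% of all genes were called, or at day 6.5, where 0.622% were. An unadjusted limma p under 0.05 was seen for 3 of the 28 members at each of these days. Of all 19938 genes, 4046 had one at day 3.5 and 2244 at day 6.5, so the members' share was below the background. At day 9.5, 11 members rose and 2 fell, against 11.6% and 7.74% of all genes. At day 12.5 there were 3 higher and 1 lower (background 4.08% and 1.19%), at day 15.5 3 higher and 2 lower (3.70% and 4.53%), and at day 18.5 5 higher and 1 lower (8.59% and 2.50%). The median difference over the 28 genes was 0.19 at day 9.5, where the median of all genes was -0.03, and lay between -0.08 and 0.08 at the other days. Averaged over days 9.5, 12.5 and 15.5, here called mid-pregnancy, Fdps, Sqle, Ebp and Dhcr7 rose and Abca1 fell, against 6.72% of genes higher and 2.52% lower.

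Within the synthesis pathway, 3 enzymes stayed high from day 9.5 through lactation: Dhcr7, which makes cholesterol in the last reduction of the pathway, Ebp, the sterol isomerase a few steps before it, and Sqle, which oxidises squalene and is a rate-controlling step. Dhcr7 read 7.6, 7.5, 7.5 and 7.3 in the non-pregnant arrays, 7.3, 7.6 and 7.5 at day 3.5, and 7.6, 7.6, 7.7 and 7.7 at day 6.5. It then read 8.4, 8.2, 8.3 and 8.5 at day 9.5, 8.7, 8.6, 8.5 and 8.6 at day 12.5, 8.6, 8.5, 8.7 and 8.7 at day 15.5, and 8.7, 8.7, 8.6 and 8.8 at day 18.5. Every array from day 9.5 to day 18.5 was above every earlier and non-pregnant array, without overlap. The rise over non-pregnant islets was 0.88 ± 0.10 (SE) at day 9.5, 1.13 ± 0.10 at day 12.5, 1.15 ± 0.10 at day 15.5 and 1.23 ± 0.10 at day 18.5, a 2.07-fold mid-pregnancy level (limma adjusted p = 1.84e-11, n = 12 and 4 arrays). This was the largest difference among the members.

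Sqle read 9.3, 9.2, 9.4 and 9.2 in non-pregnant islets, 9.8, 9.9, 9.8 and 9.9 at day 9.5 and 9.9, 9.7, 9.8 and 9.8 at day 18.5. At days 12.5 and 15.5 it lay between 9.6 and 9.9, so that no array from day 9.5 on overlapped the non-pregnant range. Its mid-pregnancy rise was 0.51 ± 0.06, or 1.42-fold (limma adjusted p = 3.18e-07). Ebp read 7.6, 7.5, 7.5 and 7.4 in non-pregnant islets, 8.0, 8.2, 8.1 and 8.2 at day 9.5, 8.1, 8.1, 8.0 and 7.8 at day 12.5, 8.0, 7.4, 8.0 and 7.9 at day 15.5, and 8.1, 7.9, 8.0 and 8.1 at day 18.5. The groups were separate except at day 15.5, where replicate 2 sat at the lowest non-pregnant level. The mid-pregnancy rise of Ebp was 0.48 ± 0.08 (1.40-fold, limma adjusted p = 5.65e-05). At day 15.5 alone its difference was 0.33 ± 0.10 (adjusted p = 0.0330), and this call ended when any of 6 arrays was left out (day 15.5 replicates 1, 3 and 4 and non-pregnant replicates 2, 3 and 4; adjusted p 0.0673 to 0.140), and after centring arrays on their medians (0.0983). Without replicate 3 of day 15.5, 3 members in all were called at that day instead of 5.

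**Figure D2:**
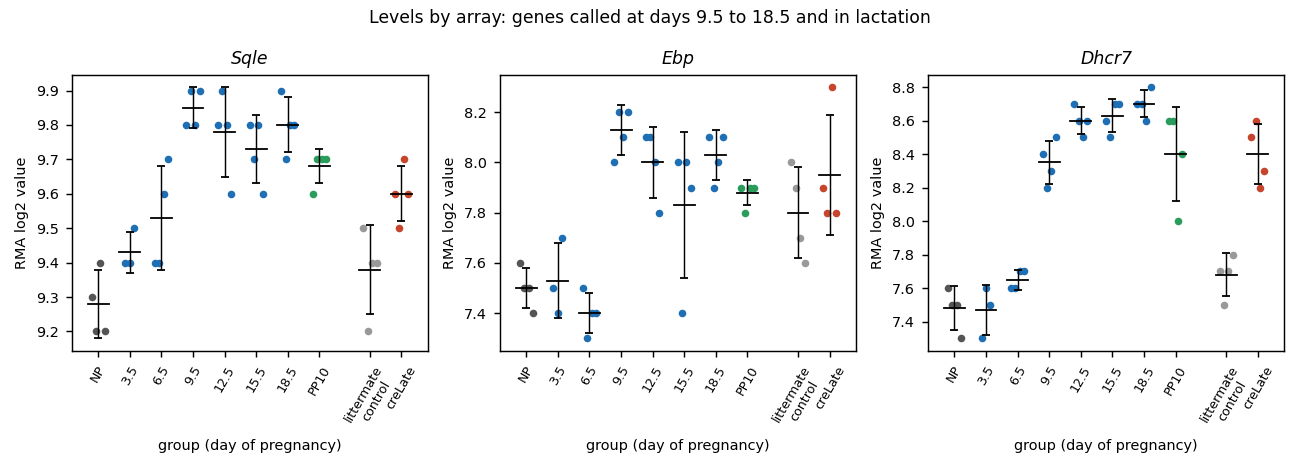
RMA log2 level of Sqle, Ebp and Dhcr7 in each array (points) by group, with the group mean (line) and SD (bars); blue marks pregnancy days, green lactation, grey the non-pregnant and littermate groups and red the transgenic group. Dhcr7 steps from at most 7.7 at day 6.5 to at least 8.2 at day 9.5, and the transgenic arrays (8.2 to 8.6) lie above their littermates (7.5 to 7.8).

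A second set of synthesis genes was called higher at day 9.5 and, apart from Lss at day 18.5, at no other day. With Sqle, Ebp and Dhcr7, 9 of the 16 measured enzymes rose at day 9.5: Hmgcs1, which commits acetyl units to the pathway, Idi1 and Fdps, which build isoprenoids, Lss, which closes the lanosterol ring, Cyp51, which demethylates lanosterol, and Sc5d, the desaturase just before Dhcr7. The levels of Hmgcs1 and Cyp51 by array are given because of the values seen. Hmgcs1 read 8.6, 8.5, 8.6 and 8.2 in non-pregnant islets and 8.9, 9.0, 9.1 and 8.9 at day 9.5, then 8.7, 8.6, 8.4 and 8.4 at day 12.5 and 8.3, 8.0, 8.3 and 8.4 at day 15.5. Its day 9.5 arrays were above all arrays of every other pregnancy day and of the non-pregnant group, with a rise of 0.50 ± 0.10 (1.41-fold, limma adjusted p = 0.000496).

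Idi1 read 7.5, 7.5, 7.5 and 7.3 in non-pregnant islets and 7.9, 8.1, 8.0 and 8.1 at day 9.5, a rise of 0.58 ± 0.12 (limma adjusted p = 0.00149). Idi1 has 2 probe sets, of which the one with the higher mean was read, and the rise was also called with their mean. It read 7.3, 7.5, 7.7 and 8.0 at day 6.5, 7.7, 7.6, 7.3 and 7.2 at day 12.5, and 7.1, 7.1, 7.2 and 7.0 at day 15.5. The day 15.5 arrays lay below every non-pregnant array, but that difference of -0.35 was not called in the fit of all C57bl6/J arrays (adjusted p = 0.0785); with the arrays of those 2 groups alone its adjusted p was 0.0269. Cyp51 read 7.5, 7.4, 7.5 and 7.3 in non-pregnant islets and 7.7, 7.8, 8.0 and 8.1 at day 9.5 (0.48 ± 0.09, limma adjusted p = 0.000280), and between 7.2 and 7.6 at days 12.5 to 18.5. Fdps read 7.9, 8.1, 8.2 and 8.1 in non-pregnant islets and 8.5, 8.4, 8.6 and 8.6 at day 9.5 (0.45 ± 0.09, adjusted p = 0.000438). These day 9.5 arrays did not overlap the non-pregnant ones in either gene. The mid-pregnancy call of Fdps (0.22 ± 0.07, adjusted p = 0.0495) sat at the threshold and ended under 18 of 28 alternatives, among them leaving out any of 10 single arrays (adjusted p 0.0525 to 0.249).

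Lss (0.33) and Sc5d (0.38) completed the day 9.5 group. Lss was also called at day 18.5 (0.28 ± 0.09, limma adjusted p = 0.0399), a call lost under 12 of 20 alternatives, among them leaving out day 18.5 replicate 1 or 4 or non-pregnant replicate 2, 3 or 4 (adjusted p 0.0708 to 0.147) and quantile normalisation (0.19, adjusted p = 0.173). At day 9.5, Lss was no longer called without day 9.5 replicate 4 (0.27, adjusted p = 0.0635) or after quantile normalisation (0.24, adjusted p = 0.0578). The other 7 enzymes, Mvk, Pmvk, Mvd, Fdft1, Tm7sf2, Nsdhl and Hsd17b7, had differences between -0.05 and 0.28 at day 9.5 and none was called. Against day 6.5, a step chosen after the day means were seen, 12 members were higher and 1 lower at day 9.5 (background 10.5% and 6.93%), with Ebp at 0.73 ± 0.10 and Dhcr7 at 0.70 ± 0.10 leading. In the same step 9 of 14 acinar markers were called lower and 1 higher (median difference -1.86), and 3 of 8 stellate and fibroblast markers were called lower. With the acinar mean as a covariate Idi1, Fdps and Sc5d were not called in this step (adjusted p = 0.0602, 0.15 and 0.0512). From day 9.5 to day 12.5, chosen in the same way, Hmgcs1 (-0.45), Idi1 (-0.58), Fdps (-0.38), Cyp51 (-0.43) and Stard4 (-0.28) fell and none rose (background 1.51% lower and 1.72% higher), while Sqle (-0.08), Ebp (-0.13) and Dhcr7 (0.25) were not called. That count of 5 was 0 without day 9.5 replicate 3 or day 12.5 replicate 4, 1 without day 9.5 replicate 4 and 3 without day 12.5 replicate 2.

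The spread of values within an array moved with the day 9.5 result. The SD over all genes was 1.87 to 1.95 in the day 9.5 arrays and 1.76 to 1.84 in the non-pregnant ones. With this SD as a covariate, 6 of the 13 members called at day 9.5 were called, namely Fdps, Sqle, Ebp, Dhcr7, Stard4 and Abca1, and Hmgcs1 had an estimate of 0.36 (adjusted p = 0.0950) and Idi1 of 0.42 (adjusted p = 0.157). The acinar mean was 8.46 at day 9.5 and 9.25 in non-pregnant islets, with 1 of 14 markers called higher and none lower; with this mean as a covariate all 9 enzymes were called.

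**Figure D3:**
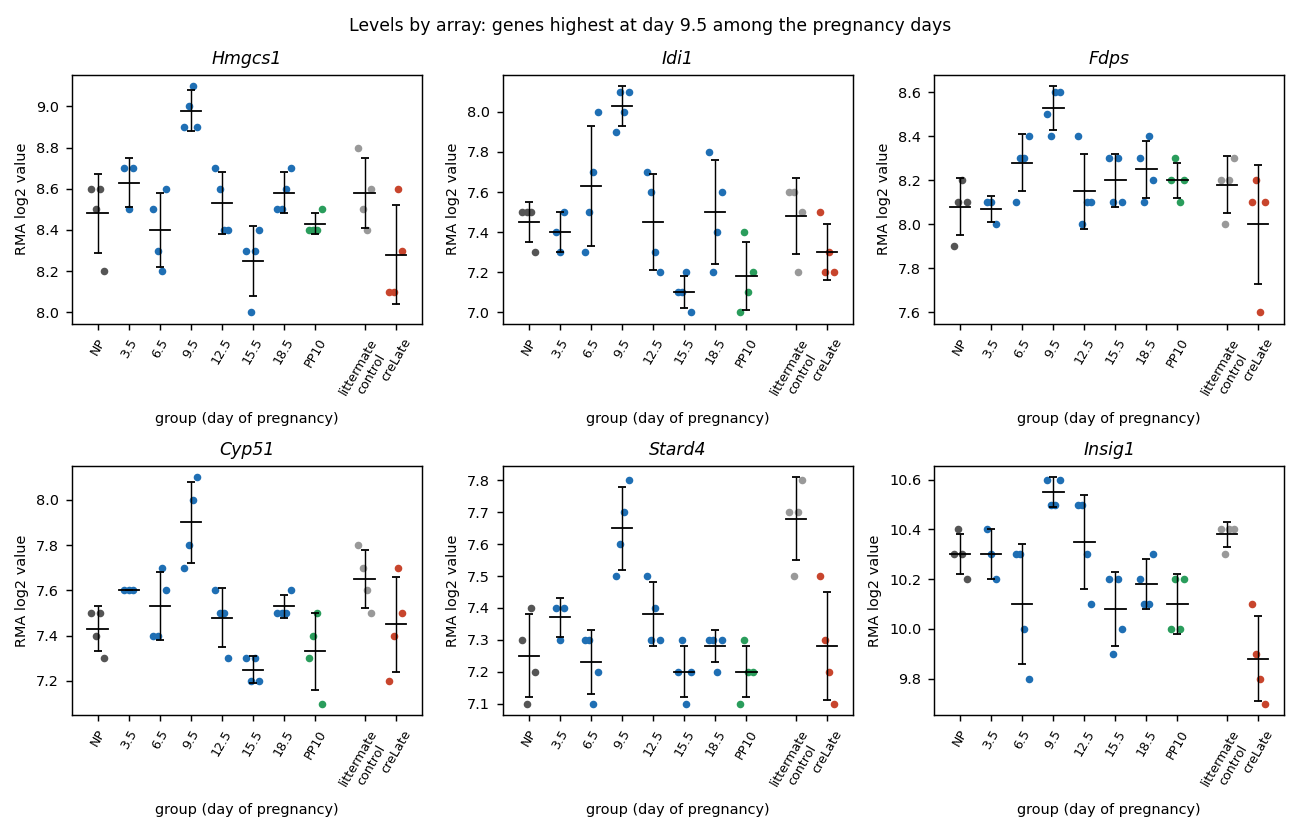
RMA log2 level by array (points), group mean (line) and SD (bars) for Hmgcs1, Idi1, Fdps, Cyp51, Stard4 and Insig1. In each panel the day 9.5 mean is the highest among the pregnancy days, for example 8.98 for Hmgcs1 and 10.55 for Insig1, and the day 15.5 mean is below the non-pregnant one in all panels but Fdps.

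The regulators other than Insig1 moved little during pregnancy. Srebf2, which encodes the SREBP that drives most cholesterol genes, had group means between 9.05 and 9.27 at the 6 days and 9.18 in non-pregnant islets, and was called at none. Srebf1, whose products drive mainly fatty acid genes, lay between 8.63 and 8.77 against 8.68 (mid-pregnancy difference 0.01 ± 0.06, limma adjusted p = 0.966). Scap, the escort of SREBP, lay between 8.63 and 8.78 against 8.63. Insig1, itself a well-known SREBP target, read 10.3, 10.4, 10.3 and 10.2 in non-pregnant islets and 10.6, 10.5, 10.5 and 10.6 at day 9.5. Those arrays do not overlap, yet the difference of 0.25 ± 0.10 missed the threshold (adjusted p = 0.0715). It was called after median centring (0.35, adjusted p = 0.0198), with trend and robust settings (0.0452) and with only the arrays compared (0.0465). At day 15.5 Insig1 was called lower only after quantile normalisation (-0.31, adjusted p = 0.0395). From day 6.5 to day 9.5 Insig1 rose by 0.45 ± 0.10 (adjusted p = 0.00229). Over the 6 days its group means ranged by 0.48 (limma F-test, adjusted p = 0.00286). Insig2 was called at day 9.5 (0.23 ± 0.07, adjusted p = 0.0254), a call that ended without day 9.5 replicate 3 or 4 or non-pregnant replicate 4 (adjusted p 0.0936 to 0.105), or after quantile normalisation (0.11, adjusted p = 0.229).

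Among the transport genes, Stard4, which carries sterol between membranes and is induced by SREBP, followed the day 9.5 pattern. It read 7.3, 7.1, 7.4 and 7.2 in non-pregnant islets and 7.5, 7.6, 7.7 and 7.8 at day 9.5, without overlap, a rise of 0.40 ± 0.08 (1.32-fold, limma adjusted p = 0.000307). At days 15.5 and 18.5 it was back between 7.1 and 7.3. Npc1, which releases cholesterol from lysosomes, read 7.8, 7.7, 7.6 and 7.8 at day 15.5 and 8.0, 7.9, 8.1 and 8.0 in non-pregnant islets, a fall of 0.28 on the log2 scale (adjusted p = 0.00880) that was not called without day 15.5 replicate 3 (-0.23, adjusted p = 0.0521). Its partner Npc2 was called at no day. Scarb1, the scavenger receptor that takes cholesterol from HDL, was called only at day 18.5, with 8.1, 8.0, 8.1 and 8.1 against 7.8, 7.9, 7.8 and 7.6. These arrays do not overlap (0.30 ± 0.09, adjusted p = 0.0197), but the call ended under 7 of 20 alternatives. It ended without day 18.5 replicate 1 or 4 or non-pregnant replicate 4 (adjusted p 0.0539 to 0.109), and after quantile normalisation (0.22, adjusted p = 0.0995). The array SD, macrophage mean or endothelial mean as a covariate also ended it (adjusted p = 0.187, 0.0818 and 0.177).

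The 2 exporters behaved differently. Abca1, which loads cellular cholesterol onto apolipoprotein A-I, read 9.3, 9.5, 9.6 and 9.4 in non-pregnant islets, 9.5, 9.6 and 9.4 at day 3.5 and 9.2, 9.2, 9.3 and 9.0 at day 6.5. It read 8.7, 8.5, 8.6 and 8.9 at day 9.5, 8.5, 8.7, 9.0 and 8.6 at day 12.5, 8.9, 8.7, 8.7 and 8.7 at day 15.5, and 8.9, 9.1, 9.0 and 9.0 at day 18.5. All arrays from day 9.5 to day 18.5 were below all non-pregnant arrays. The differences were -0.78 ± 0.11 at day 9.5, -0.75 ± 0.11 at day 12.5, -0.70 ± 0.11 at day 15.5, then -0.45 ± 0.11 at day 18.5. The mid-pregnancy level was 1.67-fold lower (limma adjusted p = 1.32e-07). The day 18.5 call ended in a model of all 39 arrays (adjusted p = 0.0879). The mid-pregnancy difference stayed between -0.79 and -0.69 over 28 alternatives and was called under each.

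Abcg1, which exports cholesterol to HDL and acts inside beta-cell granules, read 9.3, 9.2, 9.2 and 9.0 in non-pregnant islets, 9.2, 9.1, 9.0 and 9.3 at day 9.5, 9.2, 9.3, 9.2 and 9.0 at day 12.5 and 9.2, 9.1, 9.0 and 9.0 at day 15.5. These ranges overlap almost wholly, with a mid-pregnancy difference of -0.04 ± 0.07 (limma adjusted p = 0.824). Abcg1 was called in none of the 14 comparisons. The difference between the Abca1 and Abcg1 changes was not itself tested. Nr1h3, the receptor that induces both exporters, read 6.1, 5.9, 6.3 and 6.3 in non-pregnant islets and 5.9 in all 4 day 9.5 arrays, touching at one value. That fall of 0.25 on the log2 scale (adjusted p = 0.0356) was not called without any one of 5 arrays (day 9.5 replicates 2, 3 and 4 and non-pregnant replicates 3 and 4; adjusted p 0.0565 to 0.152), nor after quantile normalisation (-0.17, adjusted p = 0.185) or median centring (-0.15, adjusted p = 0.234). The mean of 11 macrophage markers, a cell type that also expresses Abca1, lay between 6.01 and 6.15 in the pregnancy days and was 6.05 in non-pregnant islets. Of these markers 2 were called higher at day 9.5 and 1 in mid-pregnancy, and C1qa, the highest of them, had group means of 8.6 in non-pregnant islets and 9.68, 9.58, 9.33 and 9.40 at days 9.5, 12.5, 15.5 and 18.5. Abca1 was called in mid-pregnancy with this mean as a covariate.

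**Figure D4:**
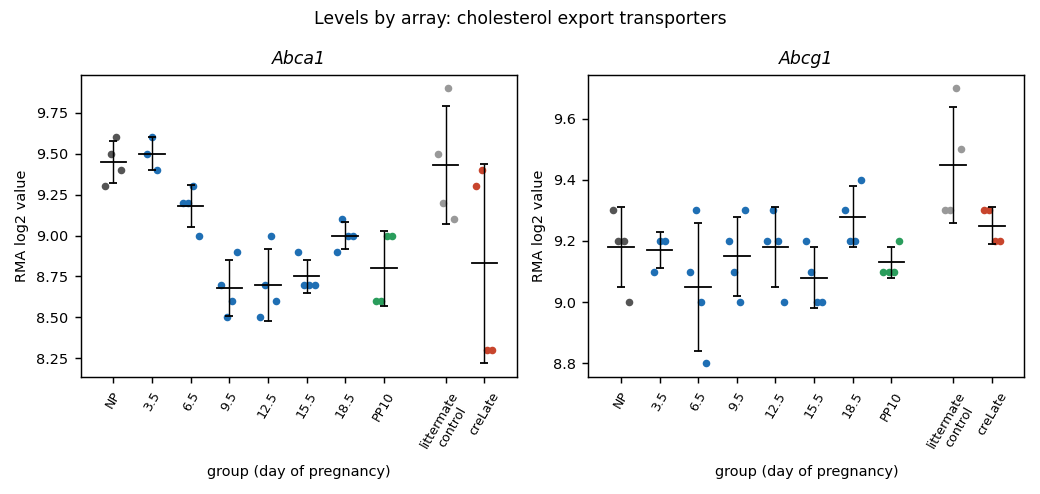
RMA log2 level of the exporters Abca1 and Abcg1 by array (points), with group mean (line) and SD (bars). Abca1 lies between 8.5 and 9.1 from day 9.5 to day 18.5 against 9.3 to 9.6 in non-pregnant islets, while Abcg1 has group means between 9.05 and 9.28 over the pregnancy days; the transgenic Abca1 arrays split into 9.3 and 9.4 against 8.3 and 8.3.

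The synthesis genes and the 2 exporters can be set side by side, with no test of the difference between their courses. Relative to the non-pregnant mean, the median of the 16 synthesis genes in an array was 0.35 ± 0.07 (SD, n = 4) at day 9.5, 0.07 ± 0.10 at day 12.5, -0.05 ± 0.10 at day 15.5 and 0.11 ± 0.08 at day 18.5. Without Sqle, Ebp and Dhcr7 it was 0.27 ± 0.09 at day 9.5 and -0.11 ± 0.08 at day 15.5. Abca1 on the same scale was -0.78 ± 0.17, -0.75 ± 0.22, -0.70 ± 0.10 and -0.45 ± 0.08 at those 4 days. Abcg1 was -0.03 ± 0.13, 0.00 ± 0.13, -0.10 ± 0.10 and 0.10 ± 0.10. Each day 9.5 array had a synthesis median above those of all non-pregnant arrays (0.25 to 0.43 against -0.10 to 0.06), Abca1 was below its non-pregnant range at all 4 days, and Abcg1 overlapped its own at each.

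In lactation, 10 days after birth, Sqle, Ebp and Dhcr7 were higher and Tm7sf2 and Abca1 lower than in non-pregnant islets, 3 and 2 members against 4.46% and 7.78% of all genes. Dhcr7 read 8.6, 8.6, 8.0 and 8.4, all above the non-pregnant maximum of 7.6 (0.93 ± 0.10, 1.90-fold, limma adjusted p = 6.65e-08). Abca1 read 8.6, 8.6, 9.0 and 9.0, all below the non-pregnant minimum of 9.3 (-0.65 ± 0.11, adjusted p = 7.65e-05). Sqle read 9.6, 9.7, 9.7 and 9.7 (0.40 ± 0.08) and Ebp 7.9, 7.8, 7.9 and 7.9 (0.38 ± 0.10), again without overlap. Tm7sf2, a sterol reductase, read 7.0, 6.8, 7.1 and 6.8 against 7.3, 7.2, 7.2 and 7.1, touching at 7.1. Its difference of -0.28 ± 0.09 was not called without any one of 5 arrays (lactation replicates 2 and 4 and non-pregnant replicates 1, 2 and 3; adjusted p 0.0648 to 0.116). Endothelial markers moved with this comparison: their mean level was 7.66 to 7.76 in the lactation arrays and 7.89 to 8.06 in the non-pregnant ones, and 3 of 8 fell. With that mean as a covariate Ebp, Dhcr7 and Abca1 were called, 3 members in place of 5.

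From day 18.5 to lactation no member rose and Idi1, Dhcr7, Scap and Scarb1 fell, against 11.8% and 18.4% of all genes, so the members' share was near or below the background. Dhcr7 differed by -0.30 ± 0.10 and Scarb1 by -0.40 ± 0.09 (limma adjusted p = 0.0228 and 0.00186). Idi1 read 7.8, 7.2, 7.4 and 7.6 at day 18.5 and 7.0, 7.4, 7.1 and 7.2 in lactation, and Scap read 8.8, 8.7, 8.7 and 8.9 and then 8.7, 8.6, 8.6 and 8.5, with overlap in both. The calls ended without any one of 6 arrays for Idi1 (adjusted p 0.0542 to 0.190), of 3 for Dhcr7 (day 18.5 replicate 4 and lactation replicates 3 and 4; 0.0504 to 0.124) and of 4 for Scap (0.0685 to 0.149). This count was 2 without day 18.5 replicate 1, 1 without day 18.5 replicate 4 and 1 without lactation replicate 4. Depending on scaling it was 1 after quantile normalisation and 12 after centring on array medians, and all 8 endothelial markers fell in the same step.

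The transgene comparison asked how islets of non-pregnant Pdx1-creLate mice differ from those of wild-type littermates. Dhcr7 rose and Tm7sf2, Hsd17b7, Insig1, Srebf2 and Stard4 fell, 1 and 5 members against 2.86% and 3.72% of all genes; 22 of the 28 differences were below 0, with a median of -0.16 and a median of -0.03 for all genes. Dhcr7 read 8.5, 8.6, 8.2 and 8.3 in transgenic islets and 7.7, 7.5, 7.7 and 7.8 in littermates, without overlap (0.73 ± 0.11, 1.65-fold, limma adjusted p = 0.000571). Of the other genes raised through pregnancy, Sqle read 9.6, 9.5, 9.7 and 9.6 against 9.5, 9.2, 9.4 and 9.4, meeting at 9.5 (0.23 ± 0.09, adjusted p = 0.203). Ebp overlapped its littermates (0.15 ± 0.13, adjusted p = 0.586).

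Insig1 read 10.1, 9.9, 9.8 and 9.7 in transgenic islets and 10.4, 10.3, 10.4 and 10.4 in littermates (-0.50 ± 0.10, limma adjusted p = 0.00546). Tm7sf2 read 7.0, 7.0, 6.7 and 7.0 against 7.4, 7.5, 7.3 and 7.5 (-0.50 ± 0.10, adjusted p = 0.00546). Hsd17b7, a ketosteroid reductase of the pathway, read 6.7, 6.3, 6.5 and 6.6 against 7.1, 6.9, 6.9 and 7.1 (-0.48 ± 0.10, adjusted p = 0.0114). All 3 were separate between the groups. Srebf2 read 8.8, 8.9, 8.6 and 8.5 against 9.0, 9.1, 9.2 and 9.0, also separate (-0.38 ± 0.10, adjusted p = 0.0464), and Stard4 read 7.5, 7.3, 7.2 and 7.1 against 7.7, 7.5, 7.7 and 7.8, touching at 7.5 (-0.40 ± 0.11, adjusted p = 0.0349). Srebf1 read 8.2, 8.3, 7.8 and 8.0 against 8.3, 8.4, 8.6 and 8.6, which meet at 8.3, and missed the threshold (-0.40 ± 0.12, adjusted p = 0.0612). The Srebf2 call ended when any array but transgenic replicate 2 was left out (adjusted p 0.0651 to 0.137), and the Stard4 call when any array but transgenic replicate 1 and control replicate 2 was (0.0704 to 0.105). Srebf1 was called without transgenic replicate 2 (-0.48, adjusted p = 0.0403). It was also called without the dimmest 25% of genes (0.0453) and with trend and robust settings (0.0183). The same held with the array SD as a covariate (0.0197) and in a model of all 39 arrays (0.00123). Over 19 alternatives its limma adjusted p ran from 0.00123 to 0.268.

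Abca1 was uneven in the transgenic islets, with 9.3, 9.4, 8.3 and 8.3 against 9.5, 9.2, 9.9 and 9.1 in littermates. Replicates 1 and 2 lay inside the littermate range and replicates 3 and 4 below it, and the difference was not called (-0.60 ± 0.24, limma adjusted p = 0.191; 0.0142 to 0.683 over 19 alternatives). The acinar marker mean was 10.7 and 10.2 in replicates 1 and 2 and 9.39 and 8.81 in replicates 3 and 4; with it as a covariate the difference was -0.92 (adjusted p = 0.0246). Abcg1 read 9.3, 9.3, 9.2 and 9.2 against 9.3, 9.3, 9.7 and 9.5 (-0.20 ± 0.10, adjusted p = 0.319). Beta-cell markers had a mean of 10.87 in transgenic and 11.23 in littermate islets, with 4 of 8 called lower. Macrophage markers had a mean of 6.27 (6.19 to 6.31 by array) and 6.10 (5.94 to 6.28), with 1 of 11 called higher; with that mean as a covariate 2 members were called, Tm7sf2 and Dhcr7, in place of 6. With the endothelial mean as a covariate Srebf2 and Stard4 were not called (adjusted p = 0.147 and 0.118). The part of the beta-cell shift in these results was not tested.

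Whether the transgene and mid-pregnancy differ in their effects was tested as the difference of the 2 log2 differences. No member was higher and Tm7sf2, Srebf1, Srebf2, Insig1 and Stard4 were lower in the transgene effect, against 1.63% and 3.86% of all genes. Called or not, 24 of the 28 differences were below 0, with a median of -0.26 and a median of -0.03 for all genes. Stard4 differed by -0.56 ± 0.11 (limma adjusted p = 0.000462), Tm7sf2 by -0.53 ± 0.11 (0.00178), Insig1 by -0.53 ± 0.13 (0.00756), Srebf2 by -0.36 ± 0.09 (0.0159) and Srebf1 by -0.41 ± 0.11 (0.0252). The count was 3 without transgenic replicate 4 and 3 without non-pregnant replicate 4, the Srebf1 and Srebf2 calls being those lost. The Srebf1 call also ended without transgenic replicate 3, control replicate 3 or 4 or non-pregnant replicate 2, and the Srebf2 call without control replicate 3 (adjusted p up to 0.0994 and 0.0677). For Dhcr7 the difference was -0.33 ± 0.13 (adjusted p = 0.159) and for Abca1 0.14 ± 0.22 (adjusted p = 0.806), which does not show that the 2 conditions act alike on them. Xist level (and so apparently sex), backcross and littermate origin differ between the transgene groups and the C57bl6/J series. They cannot be told apart from each other in this difference of effects or in the control levels. Of those levels, Insig2 read 8.90 in littermates and 8.28 in non-pregnant C57bl6/J islets and Lss 8.33 and 7.80.

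**Figure D5:**
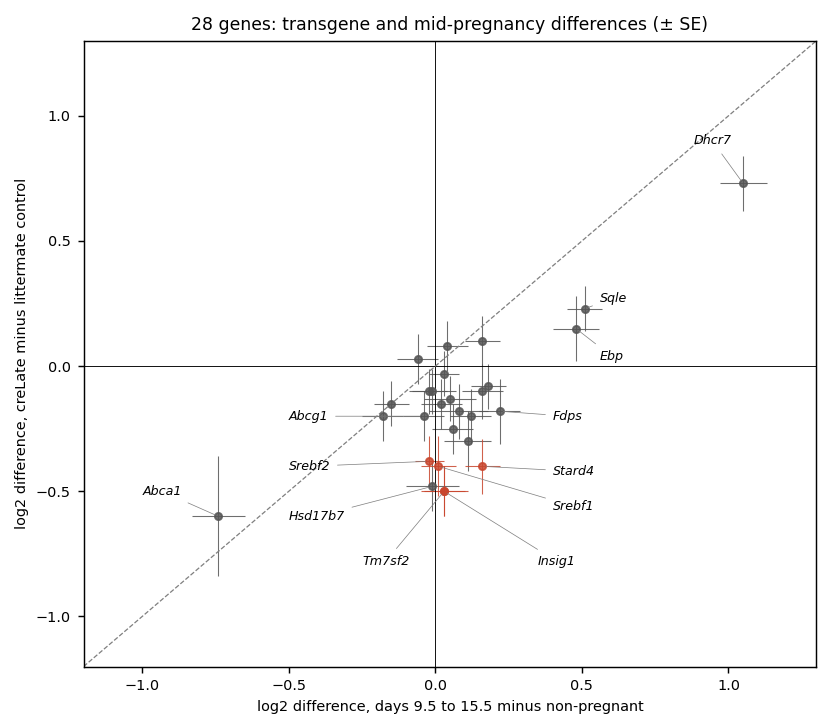
Log2 difference of transgenic against littermate islets (vertical) and of days 9.5 to 15.5 against non-pregnant islets (horizontal) for the 28 genes, with SE bars; the dashed line marks equal differences and red marks the 5 genes whose 2 differences were called unequal. Dhcr7 is high on both axes (1.05 and 0.73) and Abca1 low on both (-0.74 and -0.60, the second not called). Of the 28 genes 24 lie below the line, among them Dhcr7 and the red Tm7sf2, Insig1, Srebf1, Srebf2 and Stard4.

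Neighbouring pathways gave the following counts, to be read against the 6.72% of all genes called higher and 2.52% lower in mid-pregnancy and the 2.86% and 3.72% in the transgenic islets. Of 16 measured fatty acid synthesis genes under SREBP, 3 rose and 1 fell in mid-pregnancy, led by the desaturase Fads1 (0.66 ± 0.06) and the acetyl-CoA synthetase Acss2 (0.61 ± 0.06), with Lpin1 lower (-0.45 ± 0.08). In the transgenic islets 2 of these 16 rose and 6 fell, led by the desaturases Fads2 (-1.60 ± 0.13) and Scd1 (-1.25 ± 0.15), with Acss2 higher (0.83 ± 0.09). Of 17 genes of lipoprotein uptake and intracellular sterol transport, 3 rose and 1 fell in mid-pregnancy and 4 rose in the transgenic islets. Tmem97, a sterol-responsive membrane protein, rose by 0.54 ± 0.09 and by 0.63 ± 0.13, the lipoprotein receptor Lrp8 by 0.42 ± 0.07 and by 0.78 ± 0.11, and the cholesteryl ester hydrolase Nceh1 by 0.38 ± 0.07 and by 0.45 ± 0.11.

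The remaining lists are small and are set against the same shares of all genes. These were 6.72% higher and 2.52% lower in mid-pregnancy, and 2.86% higher and 3.72% lower in the transgenic islets. Of 12 LXR partners, targets and other sterol exporters, 2 fell in mid-pregnancy, Abca7 (-0.26 ± 0.07) and Abca2 (-0.18 ± 0.05), and 2 in the transgenic islets, the LXR-induced Mylip (-0.48 ± 0.10) and Lpcat3 (-0.35 ± 0.09). Of 6 genes of oxysterol synthesis, Hsd3b7 rose in mid-pregnancy (0.44 ± 0.08) and none was called in the transgenic islets. Of 10 genes of later and side branches of the mevalonate pathway, Acat1 and Dhdds rose in mid-pregnancy (0.23 ± 0.07 each) and none was called in the transgenic islets. None of 6 genes of SREBP processing and sterol-dependent degradation was called in either comparison by limma. An unadjusted p under 0.05 was seen for 0 of them in mid-pregnancy and 1 in the transgenic islets. Of all 19938 genes, 4010 and 3748 had one in these 2 comparisons.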

How the data were processed

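Total RNA of pancreatic islets was biotin-labelled and hybridised to Mouse Gene 1.0 ST arrays (Affymetrix). The values the authors deposited are log2 expression values with 1 decimal, made with RMA in Affymetrix Expression Console, per the submitters' processing notes; which arrays were normalised together is not given in the sources used here. The SD over the genes kept differed between arrays, so an array SD covariate was tried. Rounding makes small differences step by 0.1.

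Probe sets with exactly 1 gene symbol were kept, the one with the highest mean per symbol, which gave 19938 genes; no filter on low values was applied. Comparisons are two-sided limma tests (version 3.58.1, lmFit and eBayes, under R 4.3.3), and p-values were adjusted over all 19938 genes by Benjamini-Hochberg. The transgene comparison used its 8 arrays, the pregnancy and lactation comparisons the 31 C57bl6/J arrays, and the difference between both effects all 39. The fit was tested on simulated data. Alternatives were other scalings, a dim-gene filter, marker means or the array SD as covariates, a replicate block and leaving out single arrays; the macrophage and endothelial covariates, the removal of day 3.5 and the 2 steps around day 9.5 were added after seeing the data.

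The members, lists and tests were chosen with earlier results of these data known. Values by array are given in some or all groups. They cover up to 5 called members with the largest difference in each of the transgene, mid-pregnancy, lactation and birth comparisons. They also cover Abca1, Abcg1, Srebf1, Srebf2, Nr1h3, Insig1 and Dhcr7. Hmgcs1, Cyp51 and Npc1 were added after their values were seen. At most 4 called genes are named from each pathway list. The number of arrays limits the precision. Tables and figures used Python 3.11.15, numpy 2.4.6, pandas 2.3.3 and matplotlib 3.10.9.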

Additional observations from a re-analysis of the deposited data

Results flagged for a closer look

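In 252 gene and group combinations with 4 arrays, 14 had an array far from the other 3, and 31 further gaps of only 1 rounding step were left out. The cutoff flags about 1 in 20 by chance in unrounded values. With rounded values and those gaps left out, the 14 cannot be set against that rate. In the transgenic group the flagged arrays were replicate 3 for Pmvk (6.8, the others at 6.6), Fdps (7.6, others 8.1 to 8.2) and Tm7sf2 (6.7, others at 7.0), and replicate 2 for Scap (8.6, others at 8.4). In the littermates Npc2 was 8.7 in replicate 1 (others at 9.0), and in non-pregnant islets Idi1 was 7.3 in replicate 4 (others at 7.5). Tm7sf2 was 7.0 in day 6.5 replicate 3 (others at 7.2) and 7.2 in day 9.5 replicate 2 (others at 7.4). At day 9.5 replicate 1 stood apart for Mvk (7.3, others at 7.1) and Sc5d (8.5, others at 8.7). At day 15.5 replicate 2 stood apart for Mvd (6.9, others at 6.7) and Ebp (7.4, others 7.9 to 8.0), and replicate 1 for Abca1 (8.9, others at 8.7). In lactation Npc1 was 8.0 in replicate 3 (others at 7.8).

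The transgene effect was lower than the mid-pregnancy effect, by limma's test of the difference, for Stard4 (-0.56), Tm7sf2 (-0.53), Insig1 (-0.53), Srebf1 (-0.41) and Srebf2 (-0.36).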

How the results depend on the processing

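No member's called difference changed direction under any alternative tried, and 45 of the 87 calls over the 14 comparisons held under all of them. The F-test calls among the pregnancy days rest on a range of day means, which has no direction to change. The number of members called moved by more than 1.5 times as follows. With the array SD as a covariate it was 6 at day 9.5 (from 13), 7 for the step from day 6.5 to 9.5 (from 13), 0 for the step from day 9.5 to 12.5 (from 5) and 0 for the step across birth (from 4). With the macrophage mean as a covariate it was 2 for the transgene (from 6) and 3 from day 9.5 to 12.5, and with the endothelial mean 3 in lactation (from 5) and 0 across birth. Quantile normalisation gave 1 across birth and 3 from day 9.5 to 12.5, median centring gave 12 across birth, and fitting only the arrays compared gave 1 in each of these steps. Trend and robust settings gave 8 for the difference between the transgene and mid-pregnancy effects (from 5). Leaving out single arrays gave 3 to 5 members at day 15.5, 1 to 4 across birth, 3 to 7 for the difference of effects and 0 to 6 from day 9.5 to 12.5. The cause of these shifts was not tested.

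Replicate numbers did not pair the arrays: in 0 of 45 pairs of groups did every same-numbered pair correlate above 0.1. With the replicate number as a block, 4 members were called for the transgene, 13 at day 9.5, 4 in mid-pregnancy, 5 in lactation and 5 for the difference of effects. Values rounded to 1 decimal limit small differences, and array levels give no order between genes.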
